A study of Homo sapiens with 10 samples.

Results

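Bone morphogenetic proteins (BMPs) are secreted ligands of the TGF-beta superfamily that bind paired type I and type II receptors, which phosphorylate SMAD1, SMAD5 and SMAD9. With SMAD4, these SMADs enter the nucleus and induce a small set of direct targets, among them the ID genes and SMAD6. ID proteins have a helix-loop-helix domain without a DNA-binding part and hold E proteins away from DNA, while SMAD6 inhibits the receptor-activated SMADs, and secreted antagonists such as GREM1 bind the ligands outside the cell. In the eye, BMP signalling takes part in the patterning of the optic cup and in the formation of the retinal pigment epithelium (RPE). The 9 genes described here were chosen by symbol from the 22626 rows of the read-count table: the ligands BMP2, BMP4 and BMP6, the antagonist GREM1, the targets ID1, ID2, ID3 and ID4, and the inhibitory SMAD6. All 9 had a row, and 8 of them passed the filter on low counts that left 14936 rows for the test. GREM1 did not pass.

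The libraries were made from ARPE-19, an established human RPE cell line, with no genetic change in either group. The control group (5 libraries) was kept for 48 h in 5.5 mM glucose with 32 mM mannitol, a sugar alcohol added so that both media have a like osmotic strength, and the HG group (5 libraries) was kept for 48 h in 37.5 mM glucose. The groups therefore differ in glucose and in mannitol, and their effects cannot be told apart. The labels do not say whether the 5 libraries of a group came from separate cultures, so the p-values measure the spread between these libraries, which may be technical. Control libraries are named by their replicate number. HG libraries carry the names of their columns, HG_1 to HG_5, since the labels tie those columns to the group and not to single samples.

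Libraries held from 32448991 to 45864176 counts. Levels are given as CPM, the counts scaled to the normalized library size, and at this depth a gene without a single count may still have a level of up to 0.0669 to 0.0912 CPM (3 counts, counting error only). The cultures were measured as bulk RNA, so fewer cells with a transcript and less of it per cell cannot be told apart. TXNIP, which glucose induces, rose in the HG group from 0.978 ± 0.224 to 8.72 ± 2.76 CPM (SD, n = 5 each), and its groups did not overlap. ARRDC4, another gene that glucose induces, rose as well (log2 fold change 0.74, adjusted p = 0.00414 from edgeR). HG_1 and control replicate 2 stood apart: per 10 points of gene GC content, log2 levels were higher by 0.188 in HG_1 and by 0.170 in control replicate 2, whereas the slopes of the remaining 8 libraries ran from -0.0916 to -0.00519. Of the 15 pigment epithelium markers, 11 passed the filter, 0 rose and 4 fell (7.80% of all rows tested fell), and their summed level was 3590 to 4397 CPM in the control group and 2457 to 3101 CPM in the HG group, most of it KRT8, KRT18 and EZR, which other epithelia express too. The fourth marker that fell was PMEL, a structural protein of melanosomes, at 3.59 and 2.19 CPM on average (log2 fold change -0.72, adjusted p = 0.00854 from edgeR). The regulators MITF and OTX2 did not pass the test (log2 fold changes -0.20 and -0.12), although OTX2 was lower in every HG library than in any control library. KRT8 and KRT18, keratins of simple epithelia, fell to 1211 and 659 CPM from 1864 and 1060 CPM. RLBP1, a retinoid carrier of the visual cycle, was at 11.0 and 8.79 CPM on average and passed only in some alternatives (adjusted p = 0.133 from edgeR, and 0.0298 without HG_1), and RPE65, the isomerase of that cycle, had counts of 0 in 9 of the 10 libraries. BEST1, a chloride channel of the RPE, ranged from 0.577 to 551 CPM among the control libraries and from 0.981 to 7.79 CPM among the HG libraries. It did not pass the test (log2 fold change -4.97, adjusted p = 0.0670 from edgeR) but did in 8 of 23 alternatives. Of 5 endothelial markers 1 passed the filter, and CDH5 and EMCN were at 0 counts in every library (summed level up to 0.583 CPM in the control and 0.513 CPM in the HG group). The 5 immune markers summed to 60.8 to 88.7 CPM in the control and 105 to 149 CPM in the HG group, nearly all of it CD68, a lysosomal membrane protein, with PTPRC, the pan-leukocyte CD45 gene, at 4 counts or fewer. CD68 rose (log2 fold change 0.70, adjusted p = 0.00311 from edgeR), while CSF1R, a receptor of macrophages, was at 6.57 and 4.86 CPM on average in control and HG libraries and did not pass the test (adjusted p = 0.0502 from edgeR). The 6 neural retina markers summed to 62.1 to 75.8 and 65.5 to 77.2 CPM, nearly all of it PAX6, with CRX at 0 in every library. The part of these differences in the results on the BMP genes was not tested.

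The sequences before the starts of BMP4 and ID1 are shown because, among the 9 genes, BMP4 is the ligand that passed the test and ID1 the target with the highest estimated fold change, although ID1 did not pass. BMP4 (ENSG00000125378) spans 53949736 to 53958761 of chromosome 14 (minus strand), and ID1 (ENSG00000125968) spans 31605283 to 31606515 of chromosome 20 (plus strand), in GRCh38 with GENCODE 29. The bases come from RefSeq (GRCh38.p14), 5′ to 3′ in the direction of the gene, and stop before any exon annotated on that strand. The BMP4 stretch, chr14:53955051-53955300, precedes the most upstream of the 3 RefSeq starts and lies within the span of the longer GENCODE gene, in no exon of it. The ID1 stretch is chr20:31605039-31605282. Capitals mark GGCGCC, a GC-rich element bound by SMAD1 and SMAD5, and CAGAC, an element bound by SMAD3 and SMAD4, each searched on both strands (CAGAC reads GTCTG on the other strand).
BMP4: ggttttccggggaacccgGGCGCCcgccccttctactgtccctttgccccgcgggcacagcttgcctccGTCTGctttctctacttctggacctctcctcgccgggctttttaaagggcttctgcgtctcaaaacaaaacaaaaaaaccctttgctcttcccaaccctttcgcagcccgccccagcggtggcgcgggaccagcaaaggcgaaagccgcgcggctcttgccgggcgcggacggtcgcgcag
ID1: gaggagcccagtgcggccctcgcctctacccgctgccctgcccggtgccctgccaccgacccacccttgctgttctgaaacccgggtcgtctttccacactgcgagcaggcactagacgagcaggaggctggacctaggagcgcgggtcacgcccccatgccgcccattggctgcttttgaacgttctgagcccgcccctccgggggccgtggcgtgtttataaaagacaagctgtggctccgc

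In the BMP4 stretch, GGCGCC begins 232 bases before the start and CAGAC, on the other strand, 181 bases before it. The ID1 stretch holds neither motif, but bases further upstream were not searched, so elements there would be missed. Over windows from 250 bases before to 50 bases after each start, 8 of the 9 genes had an entry (11 windows in all). GGCGCC was in a window of 2 of these genes, BMP4 and GREM1, and in 19.2% of the 35116 windows of all genes. CAGAC was in a window of 4 genes, BMP4, GREM1, ID3 and ID4, against 45.3% of all windows. CACGTG, an E-box, was in a window of 1 gene, BMP4, where it begins 83 bases before the most downstream of the 3 starts, against 7.26% of all windows. A gene with several windows has more chances to hold a motif, and a match is no evidence of binding.

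BMP4 was the one gene of the 9 whose RNA passed the test, and it was lower in the HG group. Its level was 97.3, 103.9, 86.0, 88.5 and 80.1 CPM in control replicates 1 to 5. It was 70.9, 54.9, 53.4, 60.3 and 57.5 CPM in HG_1 to HG_5. Every HG library lay below every control library, with the highest HG library at 70.9 and the lowest control at 80.1 CPM. The group levels were 91.2 ± 9.44 and 59.4 ± 6.97 CPM (SD, n = 5 each). BMP4 fell by 34.8%, a log2 fold change of -0.62 (95% interval -0.82 to -0.42, standard error 0.0919, adjusted p = 0.00137 by the quasi-likelihood test of edgeR). Permuting the libraries exhaustively (exact test on log2 CPM, two-sided) gave p = 0.00794, the smallest that 5 against 5 libraries allow. Of all 14936 rows tested, 7.80% were called lower and 7.62% higher at an adjusted p under 0.05, so 1 called gene among 8 tested is near the background. The groups did not overlap in 1 of these 8 genes, BMP4, against 13.6% of all rows in either direction.

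**Figure D1:**
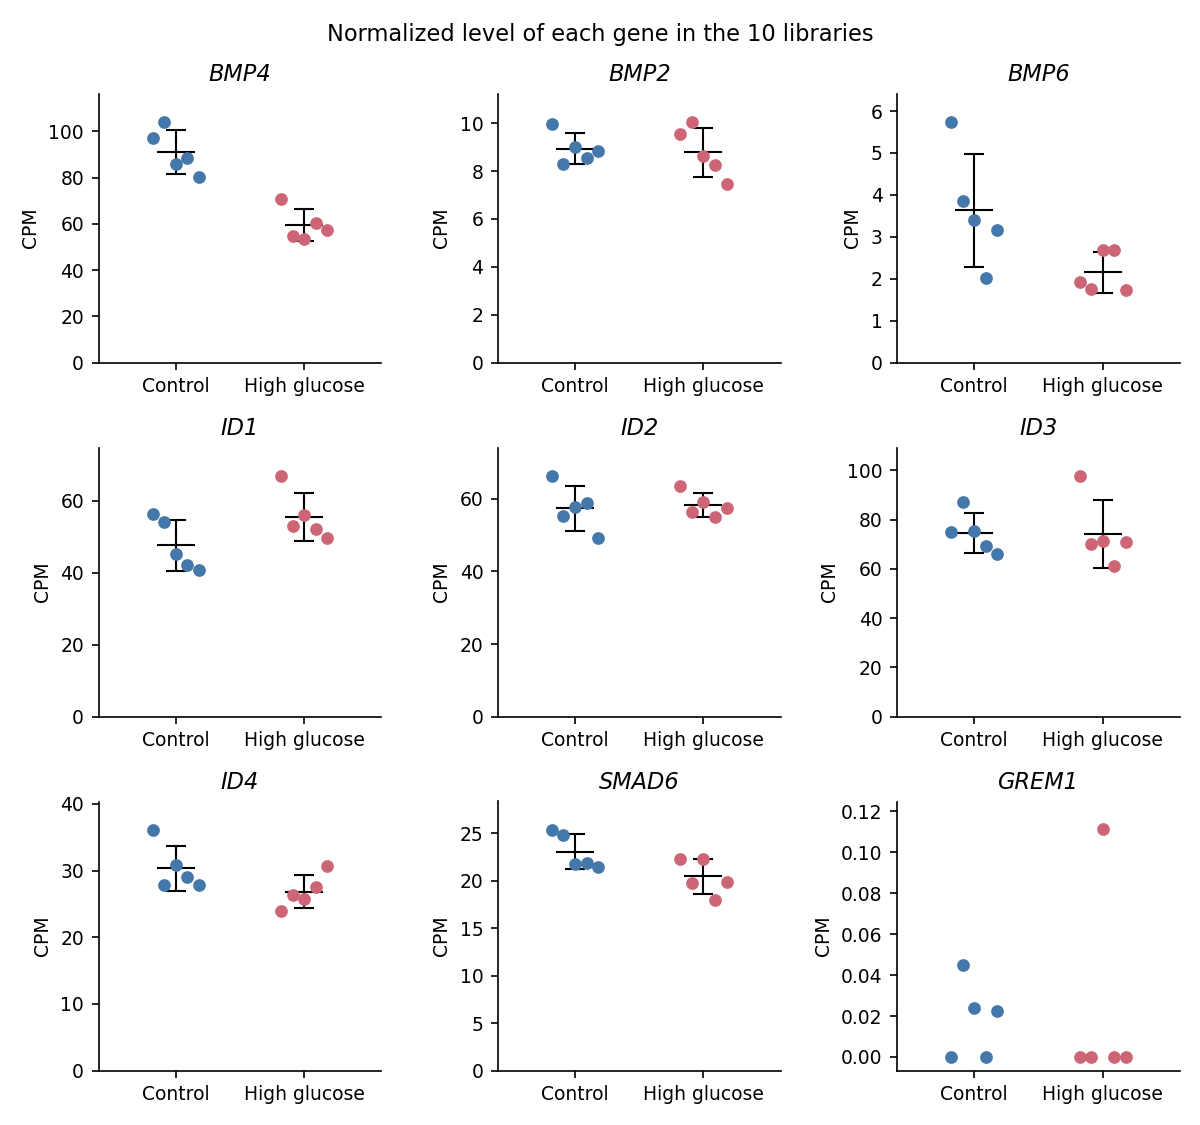
Normalized level (CPM, linear axes that differ between panels) of the 9 genes in each of the 5 control libraries (blue) and 5 HG libraries (red); the black lines give mean ± SD (not drawn for GREM1, which is at 0 in most libraries). BMP4 is the panel in which the groups do not overlap, with control libraries from 80.1 to 103.9 CPM and HG libraries from 53.4 to 70.9 CPM.

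HG_1 and control replicate 2, the libraries with the GC trend, held the highest BMP4 level of their groups. Without both, the log2 fold change of BMP4 was -0.64 (adjusted p = 0.00025 from edgeR), and after correction for GC content and length it was -0.65 (adjusted p = 1.6e-05 from the same test). With each library left out in turn it was between -0.69 and -0.57, with an adjusted p under 0.05 in all 10 fits. The BMP4 difference is thus as large without these libraries as with them.

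BMP6 (chromosome 6, 7726797 to 7881422, plus strand), a ligand known for the control of iron balance through hepcidin, was lower on average in the HG group but did not pass the adjusted test. Its level was 5.73, 3.86, 3.39, 2.03 and 3.17 CPM in control replicates 1 to 5. It was 1.92, 1.75, 2.70, 2.67 and 1.73 CPM in HG_1 to HG_5. Of the 5 control libraries, 4 lay above every HG library, while control replicate 4 lay within their range. Its log2 fold change was -0.75 (95% interval -1.33 to -0.17), with an edgeR p of 0.0155 before and 0.0800 after adjustment. It rests on between 57 and 189 counts per library. An unadjusted p under 0.05 with a fold change above 1.5 would take in BMP6 (1.69-fold lower) as well as BMP4 (1.53-fold lower), and 2.89% of all rows were lower by these limits. Without control replicate 4 the log2 fold change of BMP6 was -0.90 with an adjusted p of 0.0321 from edgeR, and without control replicate 1 it was -0.53 with an adjusted p of 0.189.

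BMP2, the ligand closest to BMP4 in the family, showed no difference beyond the spread between libraries. Its mean was 8.93 ± 0.646 CPM in control and 8.78 ± 1.02 CPM in HG libraries (SD, n = 5 each), with ranges of 8.30 to 9.98 and 7.48 to 10.03 CPM. Of the HG libraries, 1 lay above every control library and 2 lay below every control library. The log2 fold change was -0.02 (95% interval -0.24 to 0.19, adjusted p = 0.912 from edgeR). The 95% intervals of BMP2 and BMP4 do not overlap.

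GREM1, which binds BMP2 and BMP4 and keeps them from their receptors, was hardly detected. It had 0, 2, 1, 0 and 1 counts in control replicates 1 to 5 and 0, 0, 5, 0 and 0 counts in HG_1 to HG_5. Only HG_3, at 0.111 CPM, exceeded the limit of 3 counts, so no fold change is given, and a difference was not detectable at this depth.

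The ID genes are the best-known direct targets of BMP signalling, and of the 4, 0 passed the test in either direction. ID1 was at 56.3, 53.9, 45.1, 42.2 and 40.7 CPM in control replicates 1 to 5. In HG_1 to HG_5 it was at 66.7, 52.9, 55.9, 52.2 and 49.6 CPM. HG_1 lay above every control library and control replicates 3 to 5 lay below every HG library, while the remaining libraries overlapped between 49.6 and 56.3 CPM. The log2 fold change of ID1 was 0.22 (95% interval -0.02 to 0.46, adjusted p = 0.222 from edgeR).

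ID2 and ID3, which like ID1 bind the E proteins, were close to the same level in both groups. ID2 was at 57.4 ± 6.18 CPM in the control and 58.3 ± 3.34 CPM in the HG group (SD, n = 5 each), a log2 fold change of 0.02 (95% interval -0.15 to 0.19, adjusted p = 0.891 from edgeR). ID3 was at 74.6 ± 8.06 and 74.2 ± 13.8 CPM (SD, n = 5 each), a log2 fold change of -0.01 (95% interval -0.27 to 0.25, adjusted p = 0.975 from edgeR). Its highest HG value, 97.6 CPM, was that of HG_1, with the other HG libraries between 61.0 and 71.2 CPM, and its highest control value, 87.3 CPM, that of control replicate 2. A fall of either gene as large as the one estimated for BMP4 lies outside both intervals.

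ID4, the family member that can act against the other ID proteins, was at 36.0, 27.8, 30.9, 28.99 and 27.9 CPM in control replicates 1 to 5. It was at 23.9, 26.3, 25.7, 27.6 and 30.7 CPM in HG_1 to HG_5. Of the 5 HG libraries 4 lay below every control library, and HG_5 lay within the control range. Its log2 fold change was -0.17 (95% interval -0.37 to 0.02, adjusted p = 0.229 from edgeR). An antisense gene, AL022068.1, overlaps ID4 and another, ID2-AS1, overlaps ID2. Whether the counting used strand is not given in the sources used here, so their reads cannot be told apart from those of ID4 and ID2. The same holds for the few counts of GREM1, over which AC090877.2 lies on the other strand, and AC013564.1 lies within SMAD6 on the same strand.

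SMAD6, the inhibitory SMAD that BMP signalling induces as negative feedback, was at 25.3, 24.8, 21.8, 21.9 and 21.4 CPM in control replicates 1 to 5. It was at 22.3, 19.8, 22.3, 17.995 and 19.9 CPM in HG_1 to HG_5. Of the HG libraries 3 lay below every control library, and HG_1 and HG_3 lay within the control range. SMAD6 had a log2 fold change of -0.17 (95% interval -0.35 to 0.01, adjusted p = 0.189 from edgeR), and did not pass the test.

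**Figure D2:**
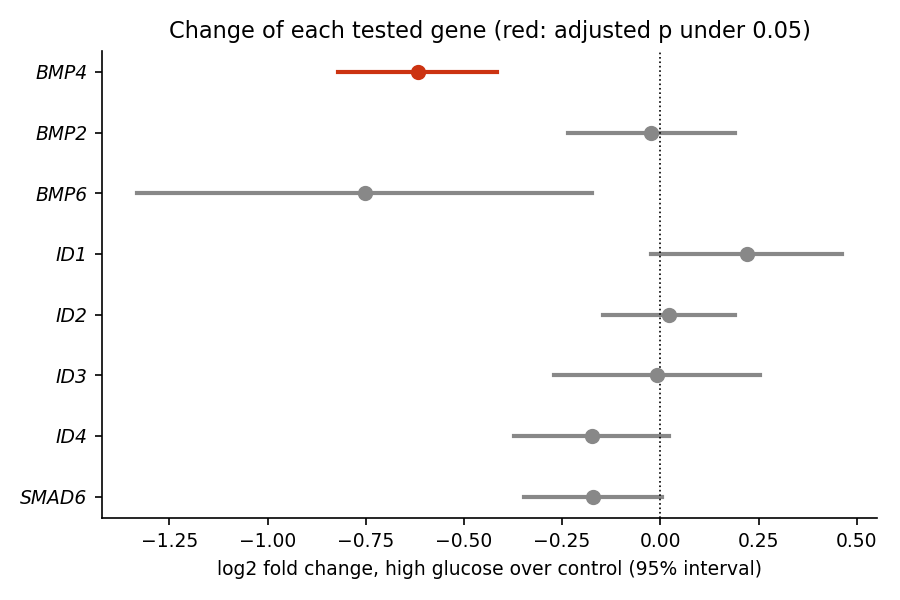
Log2 fold change (HG over control, x axis) of the 8 tested genes from edgeR, with 95% intervals as lines; red marks an adjusted p under 0.05. The interval of BMP4 (-0.82 to -0.42) does not overlap those of BMP2 or of any ID gene.

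Per length, the order of the 9 genes changed around BMP4. In the deposited FPKM values, ID3 had the highest mean in both groups (72.4 FPKM in each). In the control group BMP4 ranked 2 of 9 at 47.1 ± 4.69 FPKM, followed by ID1 at 43.2 ± 5.78 and ID2 at 40.5 ± 4.49 FPKM (SD, n = 5 each), and the ranges of these 3 genes overlapped. In the HG group BMP4 ranked 4 of 9 at 31.4 ± 2.51 FPKM, after ID1 at 51.0 ± 5.04 and ID2 at 41.6 ± 1.64 FPKM (SD, n = 5 each). There its highest library, 35.2 FPKM, lay below the lowest ID2 library, 39.5 FPKM. ID4 and SMAD6 followed in both groups, at 7.22 and 5.84 FPKM in the control and 6.45 and 5.07 FPKM in the HG group. Their ranges overlapped in the HG group, and in the control group the lowest ID4 library (6.460 FPKM) was barely above the highest SMAD6 library (6.454 FPKM). BMP2 was at 2.32 and 2.30 FPKM, BMP6 at 0.882 and 0.527 FPKM, and GREM1 at 0.00652 FPKM or below in every library.

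Among the 14 BMP and GDF ligands on the lists used here, BMP4 made up most of the RNA in both groups. Of their summed FPKM, BMP4 held 83.8% ± 1.21 in the control and 81.2% ± 1.96 in the HG group (SD, n = 5 each). Ligands of the family outside these lists were not summed. The sum of the 14 was 50.4 to 61.7 FPKM in the control libraries and 35.8 to 42.3 FPKM in the HG libraries, with no overlap. The summed FPKM of the 4 ID genes was 144 to 179 in the control and 155 to 200 in the HG libraries, which overlapped.

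The level of each target relative to BMP4 within the same library does not depend on how libraries are scaled, and it is given as a description chosen after the values were seen. The ratio of ID1 to BMP4, in CPM, was between 0.476 and 0.579 in the control and between 0.863 and 1.05 in the HG libraries. That of ID2 to BMP4 was between 0.531 and 0.680 and between 0.897 and 1.11, and that of ID3 to BMP4 between 0.771 and 0.876 and between 1.01 and 1.38. For these 3 targets every HG library lay above every control library, as it did for BMP2 to BMP4 (0.0799 to 0.110 against 0.130 to 0.183). BMP6 to BMP4 overlapped, at 0.0229 to 0.0589 in the control and 0.0271 to 0.0505 in the HG libraries. Every HG library lay above every control library for 50.6% of all other rows tested when divided by BMP4, so the separation is not particular to the targets. ID4 to BMP4 overlapped, at 0.267 to 0.370 and 0.337 to 0.534, since HG_1, at 0.337, fell within the control range. SMAD6 to BMP4 did not overlap, at 0.238 to 0.267 and 0.298 to 0.418. These ratios share BMP4 as their denominator and are not independent of one another.

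**Figure D3:**
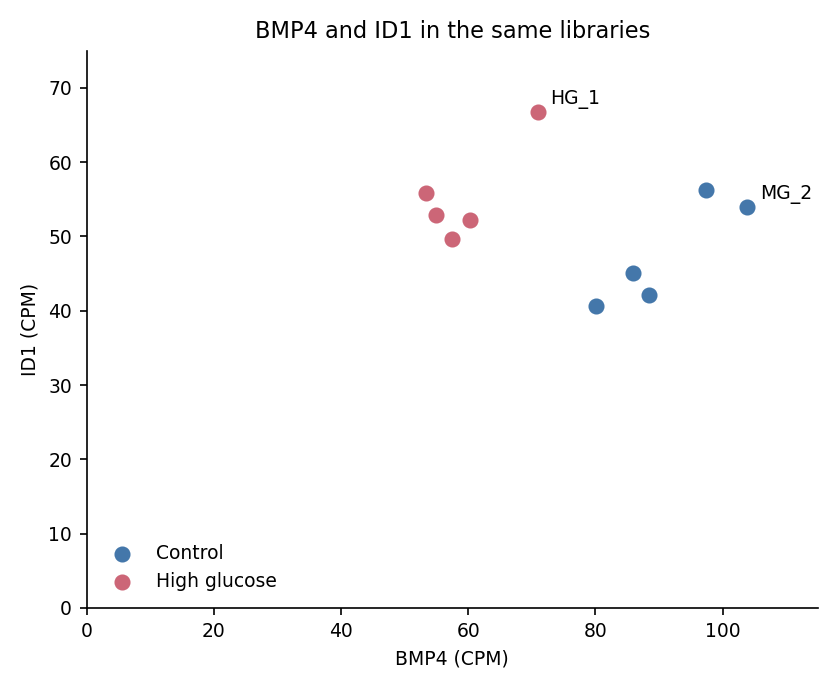
BMP4 (x axis, CPM) against ID1 (y axis, CPM) in each library, with control in blue, HG in red, and HG_1 and control replicate 2 (MG_2) named. The HG libraries sit to the left of the control libraries, with ID1 between 49.6 and 66.7 CPM against 40.7 to 56.3 CPM.

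Within the groups, deviations of the 8 tested genes from the group means were compared in pairs, and the values depended on which libraries were used. For ID1 and BMP4, Pearson's r of the deviations in log2 CPM was 0.82 over the 10 libraries, where both genes of a pair share the depth and GC trend of a library, and it was 0.60 over the 8 libraries without HG_1 and control replicate 2. Of all rows tested other than BMP4, 2.57% had an r with BMP4 at least as high as ID1 over the 10 libraries and 9.80% over the 8. No such share was computed for the other pairs. For BMP4 and SMAD6 r was 0.51 and 0.12, and for BMP4 and ID4 it was -0.09 and 0.80. For ID1 and SMAD6 it was 0.83 and 0.75, and for ID1 and ID2 0.70 and 0.82. For BMP4 and ID3 it was 0.76 over the 10 libraries and 0.03 over the 8, so that value rests on the pair with the GC trend. By the same measure, the genes whose deviations were most like those of ID1 were AKR1B1 (0.98), AKR1C3 (0.96) and PBX2 (0.96), and those most like BMP4 were SERTAD3, PHKG2 and LRRC42 (0.97 each). AKR1B1, aldose reductase of the polyol pathway, was itself lower in the HG group (log2 fold change -0.50, edgeR adjusted p = 0.00608), while ID1 did not pass the test. AKR1B1 was picked as the highest r among the rows with a symbol. Whether like deviations within groups go with like differences between them was not tested.

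The other genes of the pathway were taken from lists of 67 genes, of which 48 passed the filter. The lists were chosen with earlier results of these data known, so their shares are a description and no independent test. In the HG group 3 of them rose (6.25%, against 7.62% of all rows) and 4 fell (8.33%, against 7.80%), and their median log2 fold change was -0.08, against 0.0013 over all rows tested. These shares are near the background of the whole table, but the share called lower was not so in every alternative. It was 14.6% without control replicate 2 (7 genes, against 8.20% of all rows), 22.9% without HG_1 and control replicate 2 together (11 genes, against 13.8%) and 27.1% with the GC and length correction (13 genes, against 14.8%). The 3 genes that rose and the 4 that fell in the comparison of all 10 libraries are spread over ligands, modulators, SMADs, targets and E proteins.

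Among 11 further ligands, 5 passed the filter, 0 rose and 2 fell, where 7.62% of all rows tested rose and 7.80% fell. The 2 that fell are growth and differentiation factors of joints and skeleton that signal through BMP receptors. GDF6 was between 2.26 and 4.40 CPM in the control and between 0.699 and 1.70 CPM in the HG libraries, which did not overlap (log2 fold change -1.56, standard error 0.275, adjusted p = 0.00347 from edgeR). GDF5 was at 9.89 ± 0.339 CPM in the control and 7.51 ± 0.871 CPM in the HG group (SD, n = 5 each), also with no overlap (log2 fold change -0.40, adjusted p = 0.0131 from edgeR). BMP5, BMP7, BMP15 and GDF2 had counts of 0 in every library, which allows up to 0.0912 CPM in each.

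Among 17 further secreted antagonists and modulators, 12 passed the filter, of which 1 rose (7.62% of all rows tested rose) and 1 fell (7.80% fell). FSTL1, a secreted follistatin-like glycoprotein that can bind BMP4, fell from 787 ± 95.9 to 464 ± 51.3 CPM (SD, n = 5 each), with no overlap (log2 fold change -0.76, standard error 0.0966, adjusted p = 0.000589 from edgeR). KCP, a chordin-like protein that enhances BMP signalling, rose from 90.8 ± 13.8 to 120 ± 7.51 CPM (SD, n = 5 each, log2 fold change 0.41, adjusted p = 0.0201 from edgeR). Without HG_2 its adjusted p was 0.0508. NOG, the antagonist noggin, was at 1.84 and 2.04 CPM on average and did not pass the test (log2 fold change 0.15, adjusted p = 0.689 from edgeR).

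Of 12 receptors and co-receptors, 9 passed the filter and 0 passed the test (7.62% of all rows tested rose and 7.80% fell). RGMB, a co-receptor of the repulsive guidance family, was closest (log2 fold change -0.29, adjusted p = 0.0559 from edgeR), and it was called lower in 8 of the 23 alternatives. The type I receptors BMPR1A and ACVR1 had log2 fold changes of -0.03 and -0.09, and the type II receptor BMPR2 of -0.07, with adjusted p-values from edgeR between 0.613 and 0.880. ACVRL1, the type I receptor of endothelial cells, had counts of 0 in every library.

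Of 14 SMADs and intracellular regulators, 13 passed the filter, 1 rose (7.62% of all rows tested rose) and 0 fell (7.80% fell). SMAD9, one of the SMADs that BMP receptors phosphorylate, rose from 15.1 ± 1.73 to 20.03 ± 0.905 CPM (SD, n = 5 each) with no overlap (log2 fold change 0.41, standard error 0.0831, adjusted p = 0.00736 from edgeR). SMAD1 and SMAD5, which carry the same signal, had log2 fold changes of -0.02 and -0.15, and SMAD7, the other inhibitory SMAD, of -0.10, none of them past the test. Of 10 other direct targets, 6 passed the filter, 1 rose and 0 fell, beside the same shares of all rows. HEY1, a transcriptional repressor that both BMP and Notch signalling induce, rose from 1.31 ± 0.153 to 2.59 ± 0.367 CPM (SD, n = 5 each), with no overlap (log2 fold change 0.99, adjusted p = 0.00199 from edgeR). MSX1 and MSX2, homeobox targets of BMP signalling, had log2 fold changes of 0.02 and 0.03 and did not pass the test.

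Of the 3 E proteins that ID proteins bind, all tested, 1 fell, where 7.80% of all rows tested fell. TCF3, which encodes E12 and E47, was between 82.0 and 93.5 CPM in the control and between 68.0 and 83.5 CPM in the HG libraries (log2 fold change -0.26, adjusted p = 0.0258 from edgeR). The groups overlapped through HG_1, at 83.5 CPM, with the other HG libraries at 69.0 CPM or below. The call was lost when any 1 of HG_2, HG_3, HG_4, HG_5, control replicate 1 or control replicate 5 was left out (adjusted p between 0.0516 and 0.0700). TCF4 and TCF12 had log2 fold changes of -0.24 and -0.17 and did not pass the test.

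**Figure D4:**
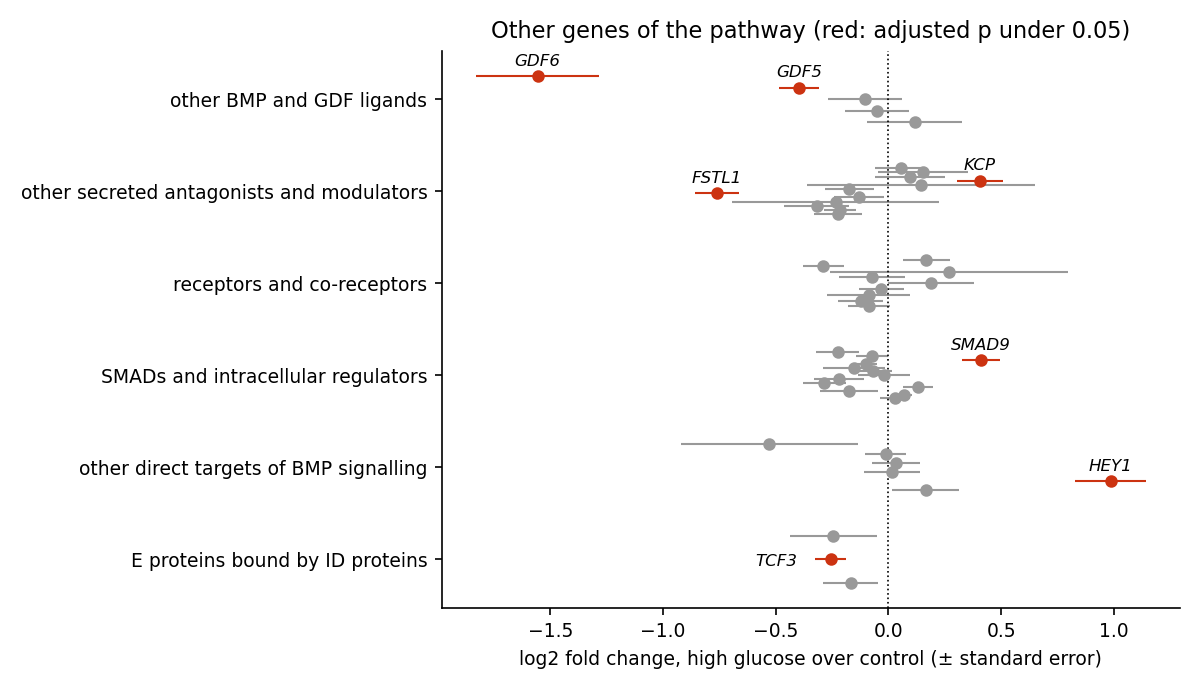
Log2 fold change (HG over control, x axis) with its standard error of the 48 further pathway genes that passed the filter, in rows by role; red marks the 7 with an adjusted p under 0.05. GDF6, GDF5, FSTL1 and TCF3 lie to the left of 0 and KCP, SMAD9 and HEY1 to the right.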

How the data were processed

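RNA of 10 ARPE-19 libraries was sequenced. The authors deposited 1 table of read counts, whole numbers without normalization, and 1 table of FPKM values, which are scaled per length and per library. The submitters' processing notes name fastp 0.20.1, HISAT2 2.2.1 and GRCh38, while the counting program, annotation and strand setting are not given in the sources used here. Counts were compared with R 4.3.3 and edgeR 4.0.16 (default filter on low counts, TMM, quasi-likelihood test, Benjamini-Hochberg adjustment over all 14936 rows tested). Log2 CPM used a prior count of 2, and exact permutation tests ran over 252 arrangements of the libraries. All 20 pairs of libraries within a group differed by more than sampling noise (chi-square per gene 13.0 to 78.0). Alternatives used DESeq2 1.42.0, limma 3.58.1 on FPKM and sva 3.50.0. The GC and length correction removed lowess trends (span 0.3) for the 13538 tested rows with values in GENCODE release 29. The steps were tested on simulated counts. Members and lists were chosen with earlier results of these data known. Named genes are the 9 members, TXNIP, ARRDC4, the markers RPE65, RLBP1, BEST1, KRT8 and KRT18, pathway genes with an adjusted p under 0.05 and the 3 genes most like ID1 and BMP4 in within-group deviations. Any other gene was named after its values were seen.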

Additional observations from a re-analysis of the deposited data

Results flagged for a closer look

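The check for distant libraries covered the 9 genes, the 7 pathway genes that passed the test, TXNIP, ARRDC4, KRT8, KRT18, RLBP1 and BEST1, which gave 44 sets of 5 libraries, and in 4 of these sets the highest library was distant from the rest. About 1 set in 20 is picked out in this way by chance. ID3 in HG_1 was at 97.6 CPM, against 61.0 to 71.2 CPM in the other HG libraries. TCF3 in HG_1 was at 83.5 CPM, against 68.0 to 69.0 CPM, and TCF3 in control replicate 2 was at 93.5 CPM, against 82.0 to 84.8 CPM in the other control libraries. HG_1 and control replicate 2 are the libraries whose levels rise with GC content, and the part of that trend in these values was not tested. GREM1 in HG_3 was at 0.111 CPM, against 0 in the other HG libraries, which is a matter of 5 counts.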

How the results depend on the processing

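The log2 fold change of BMP4 kept its direction and an adjusted p under 0.05 in all 23 alternatives, between -0.69 and -0.57. ID1, ID4 and SMAD6 passed the test in 0 of 23 alternatives and kept their direction, with ID4 at -0.11 without control replicate 1. BMP6 passed with DESeq2 (-0.754), with the GC content and length correction (-0.755) and without control replicate 4, so that the genes called lower among the 9 became 2 in these 3 alternatives. With each library left out in turn, BMP6 was between -0.90 and -0.53 and the number called lower was 1 to 2. On log2(FPKM + 1), which compresses low levels, BMP6 was -0.29 (adjusted p = 0.151 from limma), GDF6 -0.49 and HEY1 0.53, the latter pair still called. In that setting TXNIP was 1.51 and ARRDC4 0.37, both still called, and BEST1 was -1.85 (adjusted p = 0.473 from limma). Values close to 0 changed sign without passing the test: ID3 was 0.00153 with library size alone, ID2 was -0.0232 without HG_1 and control replicate 2 together and -0.0104 with the GC correction, and with a library left out BMP2 was between -0.0756 and 0.0290, ID2 between -0.0291 and 0.0782, and ID3 between -0.123 and 0.0553.

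The count of pathway genes called lower, 4 of 48, moved most: it was 7 with DESeq2 (of 58 tested, 12.1% against 8.57% of all rows), 11 with 1 surrogate variable (with 5 higher), 11 without HG_1 and control replicate 2, 13 with the GC correction, and 3 to 7 with a library left out, with the 7 without control replicate 2. Those called higher were 2 to 3 with a library left out. With the surrogate variable, without those libraries and with the GC correction, the share of pathway genes called lower (22.9%, 22.9% and 27.1%) stood beside 16.6%, 13.8% and 14.8% of all rows, while the share called higher (10.4%, 6.25% and 8.33%) stood beside 16.8%, 13.3% and 14.5%, and the cause was not tested. BMP6 gave no value at a mean FPKM of at least 1. No paired analysis was possible because the HG titles carry letters that the columns do not, and no label pairs the groups. Depth limits GREM1, with 5 counts at most.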
